A study of Caenorhabditis elegans with 18 samples.

Results

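The nhr genes encode most of the nuclear hormone receptors of the nematode Caenorhabditis elegans. Members were taken as every gene whose name in WormBase release 180, as the authors' expression table gives it, is nhr followed by a number, and whose probe set was marked as mapping uniquely. Where a gene had several such probe sets, the one with the highest mean over all conditions was kept. This gave 263 genes of the 17603 genes with a uniquely mapping probe set, from 289 probe sets. Of them, 262 carry the same name in the current RefSeq table, and nhr-33 is now called hizr-1. The RefSeq table now lists 12 of the 263 as pseudogenes.

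Nuclear hormone receptors are transcription factors that bind DNA through a zinc finger domain and carry a second domain that can hold small lipophilic ligands such as sterols and fatty acids. Nematodes have an enlarged family, much of it related to the vertebrate fat and liver receptor HNF4, beside a small number of receptors in classes shared with insects and vertebrates. In the worm, several members are known for setting fat, sterol and propionate metabolism to the diet, and others for timing the moults. Larvae that hatch without food stay in the first larval stage, a state called L1 arrest, and resume growth when they are fed.

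The study measured messenger RNA of whole animals of the wild-type strain N2 on 1-colour Affymetrix arrays, with 3 arrays for each of 18 conditions, which the deposited tables give as 1 mean intensity and 1 error per condition. Larvae grown at 20 °C in the buffer S-complete either had no food ("starved") or had the Escherichia coli strain HB101 at 25 mg/ml ("fed"). They were collected 0, 1, 3, 6, 12, 15 and 24 h after hatching. At 0 h about 50% of the animals had hatched, with a hatching window of 2.5 h. Values given below as those at hatching or of larvae at 0 h are therefore from a mixture of hatched and unhatched animals. Late (3-fold) embryos were taken 2 h ahead of hatching, and another buffer, M9, was used for larvae kept without food for 3 h. A further pair of conditions switched the food: 12 h without food followed by 3 h with it ("refed"), and 12 h with food followed by 3 h without it ("food removed"). Per the labels, fed larvae were passing from the first to the second stage at 15 h and were in the second stage at 24 h, so that food and stage cannot be told apart at those times. Each condition was treated as 1 sample, and errors given with ± on a mean intensity are the authors' own errors of that mean, with no statement of the kind of error.

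The array files put the fed arrays on 3 hybridization days and the starved arrays on 3 others, with 0 days in common. Food and hybridization day therefore cannot be told apart in comparisons of fed with starved larvae, and the spread over the 7 times does not hold a difference between the days. The embryo arrays shared the 3 days of the starved arrays, the M9 arrays shared the 3 days of the fed arrays, and the refed and food removed arrays shared 1 day of their own. The intensity of a probe set was raised to 5 by the authors where it was lower, and a probe set was called detected when its detection p was below 1e-10. The intensities of different probe sets are not on a common scale per transcript, so levels are compared between conditions and not between genes. Because whole animals were used, fewer cells of a type and less RNA per cell cannot be told apart. Of 14 marker genes of intestine, epidermis, neurons, muscle and germ line, 5 were higher and 6 were lower in fed larvae, and none was at the lowest value throughout. The summed intensity of the 3 neuronal markers ranged from 1517 to 2416 in starved and from 889 to 1412 in fed larvae. That of the 4 intestinal markers ranged from 2802 to 6402 in starved and from 3895 to 6467 in fed larvae, and that of the 2 muscle markers from 1810 to 4608 and from 2326 to 3867. The 3 epidermal markers summed to 388 to 552 in starved and 333 to 1975 in fed larvae, and the 2 germ line markers to 67.1 to 139 and 113 to 562. These sums are set by their brightest probe sets, and the markers of intestine, muscle, neurons and epidermis did not all move together within their tissue. Of the intestinal markers, ges-1 and ifb-2 were lower with food (log2 differences -1.36 and -0.40) and act-5 was higher (0.97), while elt-2 did not pass the test (-0.07). Of the muscle markers, myo-3 was lower (-0.53) and unc-54 did not pass the test (0.08). Of the neuronal markers, unc-13 and egl-3 were lower with food and unc-119 did not pass the test (log2 difference -0.15, limma adjusted p = 0.285). Of the epidermal markers, elt-3 was lower (-0.75, limma adjusted p = 0.04) and dpy-7 and wrt-2 were higher. The part of tissue makeup in the results below was not tested.

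At the authors' detection threshold, more members were detected in starved than in fed larvae. Of the 263 members, 188 were detected in at least 1 condition, 86 in all 18, and 75 in none. The number detected was 134 in embryos and between 145 and 159 in the 7 starved conditions, with the highest number at 3 h. In fed larvae it was 138 at 0 h, 136 at 3 h, 132 at 12 h and 114 at 24 h, the lowest of all conditions. At this threshold the numbers of the arms did not overlap. At a detection p below 0.001 they did, with 191 to 202 members in starved and 194 to 203 in fed larvae. Over all worm probe sets, the number detected did not follow the same order, at 11362 to 11876 in starved and 11497 to 12332 in fed larvae. In larvae starved in M9, 136 members were detected, as were 138 in refed and 129 in food removed larvae.

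Most detected members had their highest value without food. The highest of the 18 values lay in 1 of the 7 starved S-complete conditions for 103 of the 188 detected members (54.8%), against 26.4% of all detected probe sets. It lay in 1 of the 7 fed conditions for 24 members (12.8%), against 27.0% of all detected probe sets. Embryos held the highest value of 33 members, M9 larvae of 15, refed larvae of 9 and food removed larvae of 4.

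**Figure D1:**
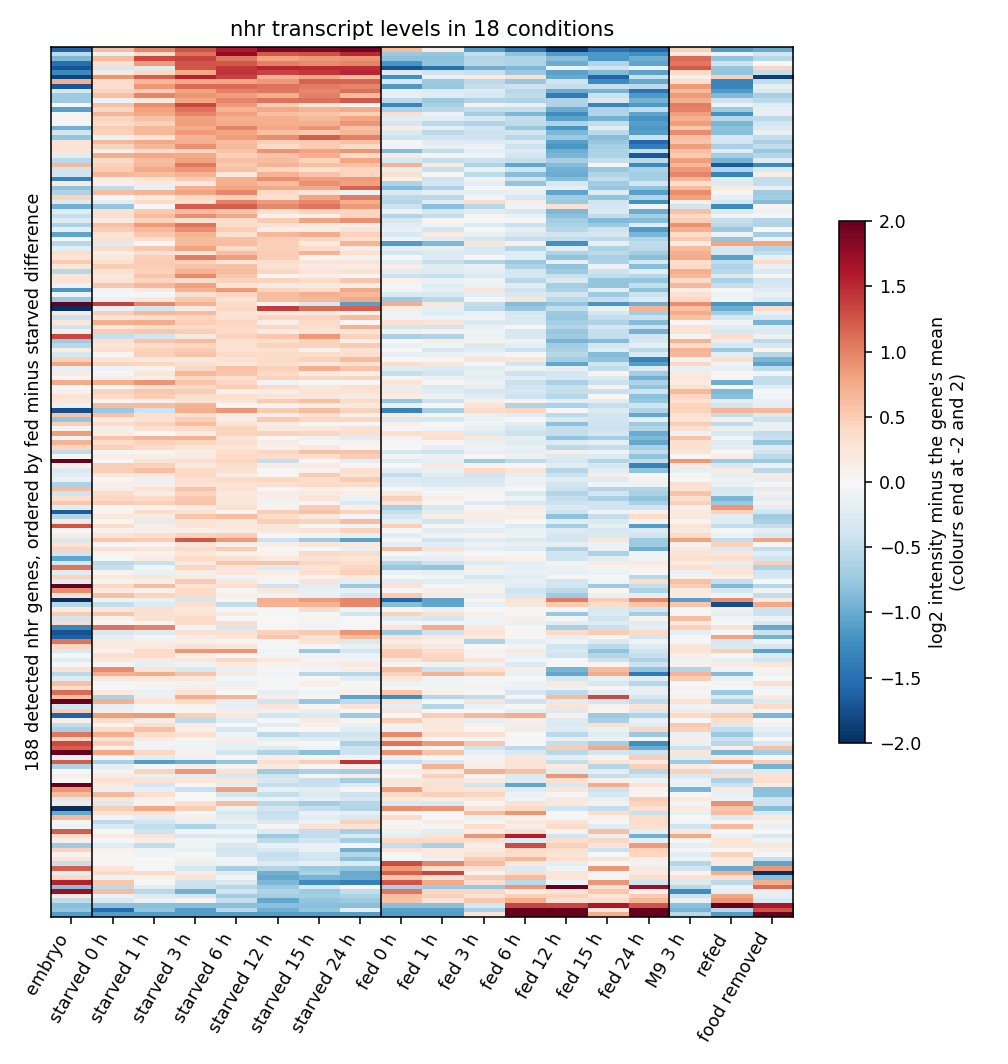
Levels of the 188 detected members (rows, ordered by their fed minus starved difference) in the 18 conditions (columns), as log2 intensity minus the gene's own mean; red is above and blue below that mean. The upper rows are red in most starved and M9 columns and blue in most fed columns, and the lowest rows are the reverse.

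Over the 7 matched times, 111 members were lower in fed than in starved larvae and 16 were higher, by limma with time as a factor at an adjusted p below 0.05. The 111 are 42.2% of the family, against a background of 16.8% of all worm probe sets called lower. The 16 are 6.08% of the family, against a background of 13.5% called higher. The other 136 members did not pass the test, and 154 members had an unadjusted p below 0.05. The median log2 difference of all 263 members was -0.26, with quartiles at -0.68 and 0, and the median over all worm probe sets was 0. Of the members called lower, 29 differed by more than 2-fold. Of those called higher, 1 did: nhr-235, which was not detected in any of the 14 fed and starved conditions and is named here after its values were seen. These 2-fold counts are given without a background.

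The lower calls were mostly of measured transcripts. Of the 111, 97 were detected in at least 4 of the 7 starved conditions and 5 were detected nowhere. Of the 16 called higher, 10 were detected in at least 4 of the 7 fed conditions and 3 nowhere. The 7 fed values lay entirely below the 7 starved values for 63 members (24.0%), against 6.06% of all probe sets, and entirely above them for 2 members, against 3.52% of all probe sets. The fed value was the lower at each of the 7 times for 102 members (38.8%), against 14.9% of all probe sets. Leaving out each time in turn, 94 of the 111 lower calls and 7 of the 16 higher calls held in every fit.

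The difference was already present in early larvae. The median log2 difference of the 263 members was -0.15 at 0 h, -0.27 at 1 h, -0.31 at 3 h and -0.32 at 6 h. It was -0.44 at 12 h, -0.35 at 15 h and -0.44 at 24 h, while the median of all probe sets was 0 at each time. The number of members lower by more than 2-fold was 9 at hatching and 65 at 24 h. No background at this cutoff is given here, so the rise cannot be set against that of all probe sets. In a fit to the times from 0 to 6 h alone, added after the data were seen, 61 members were lower in fed larvae (background 6.99%) and 3 were higher (background 4.27%).

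**Figure D2:**
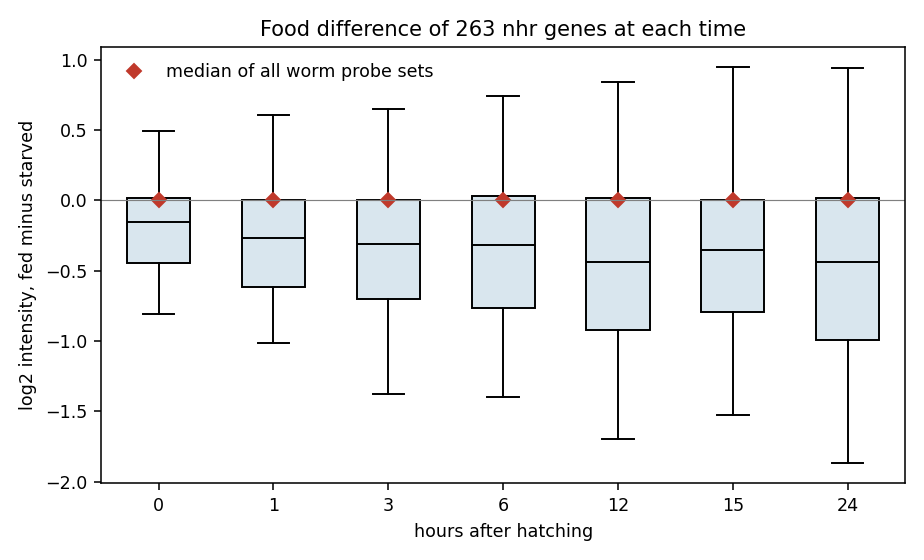
Log2 intensity of fed minus starved larvae (vertical axis) for all 263 members at the 7 times after hatching (horizontal axis, in hours); boxes span the quartiles, lines in them are medians and whiskers run from the 5th to the 95th percentile of members. The medians lie between -0.15 and -0.44, below the red diamonds, which mark the median of all worm probe sets at 0.

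Measured against embryos, members stood higher in starved larvae and, from 12 h, lower in fed larvae. The median log2 difference of all members from the embryo was 0.07 in starved larvae at 0 h, 0.17 at 3 h and 0.12 at 24 h. In fed larvae it was -0.02 at 0 h, 0 at 3 h, -0.26 at 12 h and -0.24 at 24 h. In starved larvae at 3 h, 56 members were at least 2-fold above and 21 at least 2-fold below the embryo. In fed larvae at 24 h, 26 were at least 2-fold above and 62 at least 2-fold below it. No background for these 2-fold counts is given here. Embryo and starved arrays shared their hybridization days, and embryo and fed arrays did not.

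By the p-values of the authors' deposited table, adjusted here over all worm probe sets, few members differed between starved larvae at 0 h and embryos. Of the 263, 3 were higher in starved larvae (background 1.15%) and 0 were lower (background 1.25%). The share called higher was close to the background. nhr-205 stood at 16.3 ± 4.82 in embryos and 90.5 ± 14.1 in starved larvae at 0 h (authors' deposited table, adjusted p = 0.0462). nhr-97 stood at 49.8 ± 7.54 and 269 ± 24.8 (authors' deposited table, adjusted p = 0.0394). nhr-101 stood at 46.6 ± 4.61 and 193 ± 19.5 (authors' deposited table, adjusted p = 0.0383). With p-values recomputed from the means and errors, nhr-97 passed (adjusted p = 0.0498) and nhr-205 and nhr-101 did not (0.0744 and 0.051). Between fed larvae at 0 h and embryos 0 members passed (background 0% in both directions). An unadjusted p below 0.05 was found there for 39 of the 263 members and for 16.2% of all worm probe sets, which is a similar share. Of the 3 members called, nhr-101 stood at 193 to 329 in starved larvae throughout, while nhr-97 stood at 91.4 and nhr-205 at 43.1 after 24 h without food.

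The 10 members with the largest consistent drop with food were nhr-21, nhr-132, nhr-90, nhr-193, nhr-206, nhr-161, nhr-152, nhr-101, nhr-19 and nhr-211, with log2 differences from -1.91 to -1.41. The intensity of nhr-21 was 126 ± 14.6 in embryos and 168, 233, 384, 620, 423, 439 and 515 in starved larvae at the 7 times in order. In fed larvae it was 108, 106, 130, 104, 83.8, 82.1 and 77.8. The arms did not overlap, and the mean difference was 3.77-fold (log2 difference -1.91 ± 0.28, standard error over 7 times, limma adjusted p = 0.0049).

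nhr-101 gave a similar difference at every time. Its intensity was 193, 275, 329, 328, 320, 310 and 295 in starved larvae and 68.4, 88.8, 110, 113, 108, 110 and 105 in fed larvae. It was 2.92-fold lower with food (log2 difference -1.54 ± 0.03, limma adjusted p = 5.47e-06). nhr-90 ranged from 188 to 357 in starved larvae, with a median of 298, and from 66.5 to 102 in fed larvae, with a median of 86.7. It was 3.40-fold lower with food (log2 difference -1.77 ± 0.08, limma adjusted p = 0.000278), and its arms did not overlap.

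The other leading members divide into those measured in both arms and those lost from detection with food. nhr-19 ranged from 265 to 420 in starved larvae and from 70.0 to 172 in fed larvae, and nhr-206 from 73.8 to 187 and from 30.8 to 53.6. nhr-132 ranged from 69.8 to 116 without food, detected at all 7 times, and from 20.3 to 30.1 with food, detected at 1. nhr-161 ranged from 40.8 to 77.7 without food, nhr-152 from 30.9 to 54.4 and nhr-211 from 28.8 to 38.1. None of these 3 was detected in any fed condition, where their highest values were 33.1, 19.2 and 16.9. nhr-193 overlapped between the arms, at 13.1 to 47.5 without and 5 to 15.2 with food, and was lower with food at each time.

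Of the members higher in fed larvae, 6 met the same rule: nhr-202, nhr-12, nhr-3, nhr-201, nhr-50 and nhr-86. nhr-12 ranged from 57.7 to 86.4 in starved larvae, with a median of 61.0, and from 112 to 142 in fed larvae, with a median of 129. It was 1.88-fold higher with food (log2 difference 0.91 ± 0.09, limma adjusted p = 0.00139). nhr-202 ranged from 41.2 to 87.5 without and from 102 to 139 with food, a 1.97-fold difference (0.98 ± 0.14 on the log2 scale, limma adjusted p = 0.00441). The arms of these 2 did not overlap, and refed larvae held the highest values of both genes, at 160 ± 12.5 for nhr-12 and 155 ± 28.4 for nhr-202.

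nhr-3 and nhr-50 stood below their embryo level in every fed and starved condition. nhr-3 stood at 536 ± 39.2 in embryos, ranged from 84.4 to 251 in starved larvae and from 176 to 338 in fed larvae. nhr-50 stood at 216 ± 23.7 in embryos, ranged from 54.7 to 114 in starved and from 76.9 to 174 in fed larvae. nhr-201 ranged from 23.2 to 57.3 without and from 49.3 to 73.6 with food. The log2 differences were 0.86 ± 0.13 for nhr-3, 0.72 ± 0.16 for nhr-50 and 0.77 ± 0.16 for nhr-201, with limma adjusted p-values of 0.00532, 0.0161 and 0.0142. The arms of all 3 overlapped. Another unique probe set of nhr-50 gave 0.80 and did not pass (limma adjusted p = 0.0533). The nhr-201 call was lost in a fit to the times from 0 to 12 h.

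**Figure D3:**
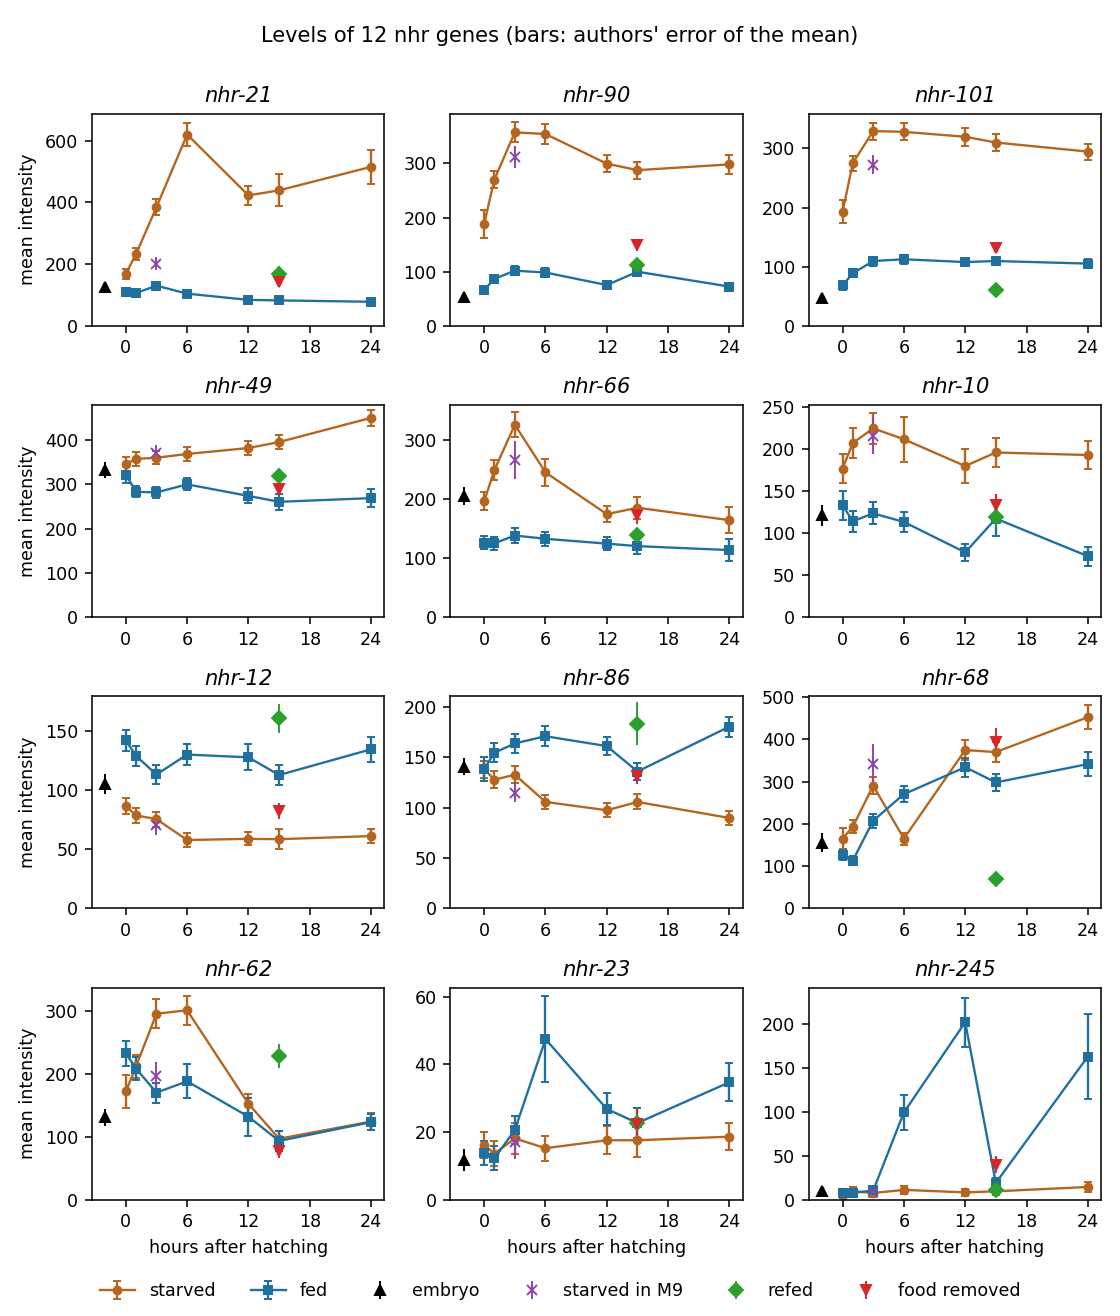
Mean intensity (vertical axes, linear, each starting at 0) of 12 members against hours after hatching in starved (brown) and fed (blue) larvae, with embryos, M9, refed and food removed larvae as single points; bars are the authors' errors. nhr-21, nhr-90 and nhr-101 separate by food at all times, nhr-12 is the reverse, the lines of nhr-68 and nhr-62 cross, and nhr-245 is raised at 6, 12 and 24 h with food.

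The 14 receptors with known roles in fat, propionate, vitamin or fasting metabolism mostly followed the family. Of them, 7 were lower in fed larvae (background 16.8%), 1 was higher (background 13.5%) and 6 did not pass the test. Their median log2 difference was -0.37. nhr-49, an HNF4-like receptor that controls fatty acid oxidation and desaturation in the fasting response, was 346, 358, 360, 369, 382, 396 and 451 in starved larvae at the 7 times. In fed larvae it was 323, 283, 282, 300, 274, 261 and 269. The arms did not overlap, and the difference was 1.33-fold (log2 difference -0.42 ± 0.08, limma adjusted p = 0.00977).

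Receptors known as partners of NHR-49 differed in this respect. nhr-66 ranged from 164 to 326 in starved larvae, with a median of 196, and from 114 to 138 in fed larvae, with a median of 125 (log2 difference -0.77 ± 0.10, limma adjusted p = 0.00318). Its highest value was at 3 h without food, and the arms did not overlap. nhr-80 ranged from 96.9 to 141 without and from 69.0 to 104 with food (-0.44 ± 0.12 on the log2 scale, limma adjusted p = 0.0282). That call was lost on leaving out 0, 1, 12, 15 or 24 h, with adjusted p-values up to 0.0716. nhr-13 ranged from 46.4 to 63.5 without and from 43.3 to 64.3 with food and did not pass the test (-0.14 ± 0.06, limma adjusted p = 0.12).

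Of the receptors that switch on the propionate shunt, an alternative route of propionate breakdown, nhr-10 passed the test and nhr-68 did not. nhr-10 ranged from 177 to 225 in starved larvae, with a median of 196, and from 72.7 to 133 in fed larvae, with a median of 114. The arms did not overlap (log2 difference -0.92 ± 0.12, limma adjusted p = 0.00305). nhr-68 was 165, 193, 291, 165, 375, 370 and 453 without food and 127, 113, 208, 270, 334, 298 and 342 with food (-0.26 ± 0.17 on the log2 scale, limma adjusted p = 0.283). Its fed value was the higher at 6 h alone. Leaving out that time, the log2 difference was -0.42 and passed the test (limma adjusted p = 0.0204).

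Among the other metabolic receptors, nhr-64 and nhr-69 did not overlap between the arms. nhr-64 ranged from 173 to 223 without and from 85.5 to 137 with food (log2 difference -0.72 ± 0.12, limma adjusted p = 0.00645). nhr-69 ranged from 136 to 167 without and from 71.1 to 108 with food (-0.68 ± 0.09, limma adjusted p = 0.00389). nhr-76, at 9.13 to 21.9 and 8 to 15.0, was called lower but detected in no condition, and the call was lost on leaving out any time but 0 h, with adjusted p-values up to 0.0764.

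nhr-86, a receptor with a known part in the response to pathogens and their metabolites, was the metabolic receptor higher with food. It was 138, 128, 133, 106, 97.4, 106 and 89.8 in starved larvae and 138, 154, 164, 171, 161, 136 and 180 in fed larvae. The values were equal at hatching and 2.01-fold apart at 24 h. Over the 7 times the log2 difference was 0.48 ± 0.12 (limma adjusted p = 0.0259), and the call was lost on leaving out 6, 12 or 15 h, with adjusted p-values up to 0.0687.

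The remaining metabolic receptors moved with time in both arms, with values that overlapped. nhr-62, which extends life under dietary restriction, was 172, 212, 296, 302, 153, 97.3 and 125 without food and 233, 209, 171, 189, 132, 93.8 and 124 with food (log2 difference -0.19 ± 0.15, limma adjusted p = 0.384). nhr-114, which protects the germ line and acts with dietary vitamin B12, stood at 26.0 ± 6.99 in embryos. It ranged from 102 to 256 without food and from 43.8 at hatching to 267 at 12 h with food (-0.26 ± 0.25 on the log2 scale, limma adjusted p = 0.483). nhr-8, a receptor of cholesterol balance and of resistance to foreign compounds, ranged from 141 to 301 without and from 136 to 228 with food (-0.32 ± 0.10, limma adjusted p = 0.0514). nhr-8 and nhr-25 stand both in this list and in that of the conserved receptors, and nhr-25 is given below.

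**Figure D4:**
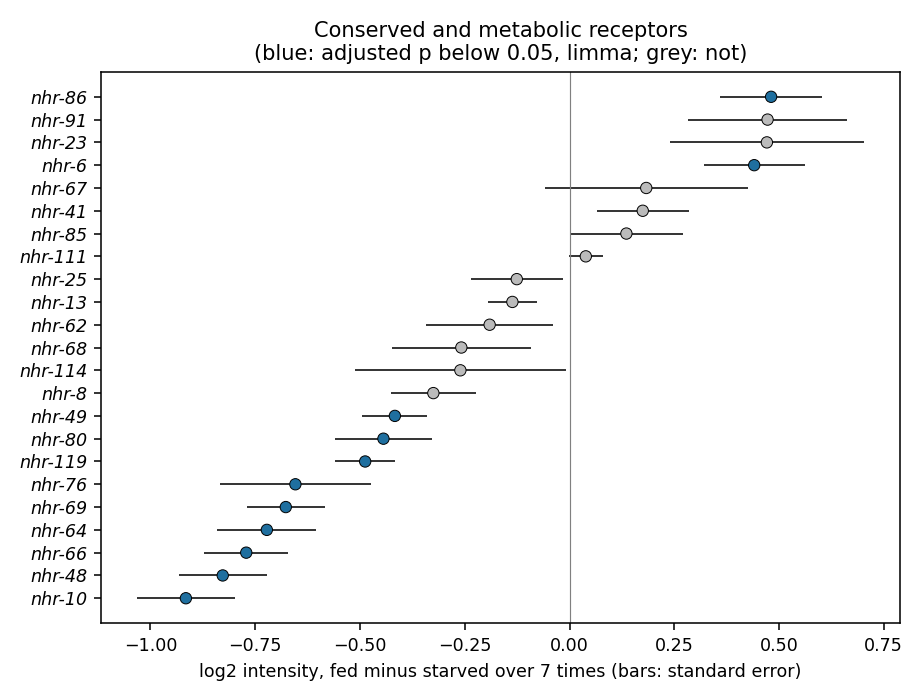
Log2 intensity of fed minus starved larvae over the 7 times (horizontal axis, bars are standard errors) for the metabolic and conserved receptors (vertical axis); blue marks a limma adjusted p below 0.05 and grey the rest. In all, 9 points are blue to the left of 0 and 2, nhr-6 and nhr-86, to the right.

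Few of the 11 receptors with a class outside nematodes were called. Of the 11, 1 was higher in fed larvae (background 13.5%), 2 were lower (background 16.8%) and 8 did not pass the test. These shares were near the background. The median log2 difference of the 11 receptors was 0.14. No test compared them with the rest of the family. Several were at or near background. nhr-41 and nhr-85, related to the vertebrate TR2/TR4 and Rev-erb receptors, and nhr-111 were detected in no condition. nhr-67, the tailless relative with roles in neurons and other cell fates, was detected in embryos alone, at 64.4 ± 9.70 against 7.11 to 24.4 in all fed and starved larvae.

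The moulting receptors behaved unlike each other. nhr-23, the ROR-like receptor required for moulting, was 16.3, 13.7, 18.1, 15.2, 17.6, 17.6 and 18.6 in starved larvae and 13.8, 12.3, 20.6, 47.5, 26.8, 22.7 and 34.7 in fed larvae. It was detected at 2 fed times and in no starved condition. nhr-25, the FTZ-F1-like receptor of moulting and epidermal cells, stood at 238 ± 22.1 in embryos, 144 to 173 in starved and 107 to 179 in fed larvae. It did not pass the test (log2 difference -0.13 ± 0.11, limma adjusted p = 0.435).

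nhr-48, related to the vitamin D and xenobiotic receptors, ranged from 131 to 192 without and from 74.8 to 101 with food, with no overlap (-0.83 ± 0.10 on the log2 scale, limma adjusted p = 0.00303). nhr-6, the worm NR4A receptor, ranged from 24.1 to 41.7 without and from 32.1 to 51.4 with food (0.44 ± 0.12 on the log2 scale, limma adjusted p = 0.0331). That call was lost on leaving out any time but 6 h, with adjusted p-values up to 0.0783. nhr-119 ranged from 23.1 to 31.9 and from 15.9 to 24.2 (-0.49 ± 0.07 on the log2 scale, limma adjusted p = 0.00477). Its other unique probe sets gave -0.21 and 0.08. nhr-91, the germ cell nuclear factor relative, ranged from 41.5 to 85.1 and from 60.3 to 111 and did not pass over the 7 times (0.47 ± 0.19, limma adjusted p = 0.104). By the authors' deposited table it was higher in fed larvae at 12 h, at 100 ± 11.4 against 65.4 ± 9.07 (adjusted p = 0.0359). Recomputed from the means and errors, the adjusted p was 0.248.

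Nuclear receptors with other names, which the family rule leaves out, included 1 of 5 lower with food (background 16.8%) and 0 higher (background 13.5%). That was fax-1, at 19.2 to 26.0 without and 13.6 to 20.1 with food and detected in 1 condition. daf-12, the dafachronic acid receptor of larval timing and dauer formation, was 19.5 to 27.8 and 18.6 to 28.5, and its log2 difference was 0.06 ± 0.07.

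Among cofactors of nuclear receptors, 15 of the 19 listed were measured. Of these, 6 were lower (background 16.8%) and 1 was higher (background 13.5%) in fed larvae, with a median of -0.20. mdt-15, the Mediator subunit that NHR-49 works with, ranged from 179 to 256 in starved and from 65.8 to 132 in fed larvae (-1.09 ± 0.16 on the log2 scale, limma adjusted p = 0.00441). gei-8, the worm relative of the corepressor NCoR, ranged from 87.3 to 112 and from 42.9 to 96.6 (-0.68 ± 0.12, limma adjusted p = 0.00923). sop-3, a Mediator subunit, and egl-27 had log2 differences of -0.54 and -0.43. The cofactor called higher, mdt-6, is a Mediator subunit, and its log2 difference was 0.38 ± 0.05.

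Known targets of the receptors changed in both directions. Of 12 genes described as regulated by NHR-49, 4 were lower (background 16.8%) and 3 were higher (background 13.5%) with food. fmo-2, a flavin monooxygenase, ranged from 525 to 1317 without and from 43.7 to 91.3 with food (log2 difference -3.77 ± 0.13, limma adjusted p = 0.000113). sodh-1, an alcohol dehydrogenase, ranged from 797 to 6640 and from 185 to 953 (-3.16 ± 0.43, limma adjusted p = 0.00381). fat-7, a stearoyl-CoA desaturase, was undetected without food at 19.8 to 40.0 and reached 817 with food (3.07 ± 0.47, limma adjusted p = 0.00533). ech-1, an enzyme of fatty acid oxidation, ranged from 9.46 to 35.3 and from 62.4 to 159 (2.65 ± 0.45, limma adjusted p = 0.00716).

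The 9 targets of the moulting receptors NHR-23 and NHR-25 had a median log2 difference of 2.24. Of them, 5 were higher with food (background 13.5%) and 0 were lower (background 16.8%). They included mlt-8, which ranged from 13.3 to 104 without and from 65.3 to 2143 with food, and dpy-7, a cuticle collagen, at 5 to 28.1 and 13.6 to 657. The log2 differences were 3.73 ± 0.83 and 3.26 ± 0.98, and those of noah-1 and mlt-11, of the outer matrix and of moulting, were 3.02 ± 0.54 and 2.61 ± 0.61. Of 5 propionate shunt genes downstream of NHR-10 and NHR-68, acdh-1 and hach-1 were higher (background 13.5%) and alh-8 was lower (background 16.8%) with food. Of 7 genes that make or move sterol ligands, 1 was higher and 2 were lower, against the same backgrounds. daf-36 was higher (2.56 ± 0.36 on the log2 scale, limma adjusted p = 0.0042). ncr-1 and hsd-1 were lower, the latter with no detection in any condition.

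The growth of the food difference after hatching was tested as a straight line, which misses differences that rise and fall again. The slope of the log2 difference on log2(hours + 1) was falling for 19 members (background 3.24%) and rising for 2 (background 2.14%) by limma at an adjusted p below 0.05. Leaving out single times gave 0 to 14 falling members, and 0 of either direction without the 1 h samples. nhr-21 stood at 168 without and 108 with food at hatching and at 515 and 77.8 after 24 h (slope -0.45 ± 0.06, limma adjusted p = 0.0241). nhr-19 had a slope of -0.41 ± 0.04 and nhr-206 of -0.50 ± 0.05. nhr-203 had a slope of 0.22 ± 0.04, from 58.6 with and 56.2 without food at hatching to 62.8 and 32.6 at 24 h.

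At single times, the authors' p-values passed for members from 3 h on, once adjusted here. By the p-values of the authors' deposited table, adjusted over all worm probe sets, 8 members were lower in fed larvae at 3 h (background 0.612%) and 0 higher (background 0.417%). With p-values recomputed from the means and errors, none of the members called at 3 h or 6 h passed. At 6 h, 3 were lower and 2 higher (background 0.798% and 0.763%), and at 12 h, 36 were lower and 5 higher (background 5.3% and 4.59%). The share of the family called higher at 6 h was close to the background. At 15 h, 9 were lower and 3 higher (background 2.5% and 2.19%), and at 24 h, 23 were lower and 3 higher (background 3.91% and 3.87%). None passed at 0 h or 1 h by that table, where the background was 0% in both directions at 0 h, and 0% higher and 0.00443% lower at 1 h. The numbers with an unadjusted p below 0.05 at those times were 23 and 72, against 6.30% and 14.3% of all worm probe sets. Of the 72, 64 were lower and 8 higher in fed larvae. At 3 h the number was 85, against 21.5% of all worm probe sets. Since almost no probe set of any kind was called at 0 h or 1 h, the calls do not date the onset of the difference.

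nhr-90, at 102 ± 8.31 with and 357 ± 18.3 without food, differed most among those called at 3 h (log2 difference -1.81 ± 0.14, propagated from the errors), followed by nhr-101, nhr-66, nhr-122 and nhr-182. At 6 h nhr-21 stood at 104 ± 11.7 with and 620 ± 38.1 without food, and nhr-35 at 120 ± 10.3 and 268 ± 17.0. At 24 h nhr-21, nhr-206, nhr-90, nhr-4 and nhr-47 had the largest drops among members called, and nhr-86, nhr-50 and nhr-205 were higher in fed larvae. nhr-132 and nhr-161 were among the largest drops of members called at 15 h, when nhr-50 (174 ± 20.7 against 56.9 ± 11.1) and nhr-3 (237 ± 22.1 against 99.0 ± 13.1) were higher with food. Recomputed from the means and errors, the adjusted p was 0.0803 for nhr-50 and 0.0717 for nhr-3 at 15 h. nhr-220, called higher at 6 h, was not detected in either condition.

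A small set of members peaked with food at 12 h. nhr-245 was 7.88, 7.93, 10.6, 99.1, 201, 19.2 and 163 in fed larvae at the 7 times and 5.68 to 14.6 in starved larvae. nhr-74 was 5, 5, 13.1, 115, 164, 17.8 and 43.3 in fed larvae and at the lowest value of 5 in every starved condition. nhr-113 was 19.5, 18.4, 17.9, 56.4, 155, 37.4 and 101 in fed larvae and 18.4 to 31.4 in starved larvae. All 3 stood lower at 15 h than at 12 h and 24 h. By the authors' deposited table, nhr-245 and nhr-113 were higher in fed larvae at 12 h (adjusted p = 0.0188 and 0.0349) and nhr-74 did not pass (adjusted p = 0.24). Over the 7 times none of the 3 passed the limma test, with adjusted p-values of 0.076 for nhr-245, 0.213 for nhr-113 and 0.0523 for nhr-74.

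The array's annotation names a second receptor gene for each of these probe sets: nhr-73 beside nhr-245, nhr-244 beside nhr-74 and nhr-259 beside nhr-113. The signal can therefore come from either gene of a pair. Other members with wide ranges over fed times were nhr-114 and nhr-58, the latter at 13 at hatching and 76.4 ± 13.5 at 15 h. Of 162 members detected in at least 1 fed condition, 65 (40.1%) ranged over more than 2-fold with time, against 43.1% of all probe sets so detected.

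By the authors' deposited table, 0 members passed between 0 and 3 h in either arm, between 3 and 6 h or 6 and 12 h without food, or between 6 and 12 h, 12 and 15 h or 15 and 24 h with food. The background in these comparisons was at most 0.00887% in either direction, other than from 6 h to 12 h with food. From 6 h to 12 h with food, the background was 0.173% higher and 0.0754% lower. There, 40 members had an unadjusted p below 0.05, of which 32 were lower and 8 higher at 12 h. Of all worm probe sets, 16.2% had an unadjusted p below 0.05 in that comparison, close to the share of the family.

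In starved larvae, 43 of 173 detected members (24.9%) ranged over more than 2-fold, against 23.2% of all probe sets so detected. The widest ranges were those of nhr-127, nhr-112, nhr-43, nhr-63 and nhr-21. nhr-127 stood at 12.2 at hatching and 52.4 ± 9.05 at 24 h. nhr-112 stood at 46.5 at hatching, 75 ± 8.33 at 3 h and 15.2 ± 3.97 at 24 h. nhr-43 stood at 37.9 at hatching and 150 ± 17.0 at 3 h. nhr-63 stood at 287 ± 27.5 in embryos, 144 at hatching and 38.6 at 24 h.

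Some of these also differed with food. nhr-43 was lower with food (log2 difference -0.94 ± 0.24, limma adjusted p = 0.027) and nhr-63 higher (0.84 ± 0.25, limma adjusted p = 0.0425). Both calls were lost on leaving out single times: for nhr-43 any but 0 h, with adjusted p-values up to 0.0687, and for nhr-63 any but 6 h and 15 h, with adjusted p-values up to 0.0908. At 15 h with food nhr-63 stood at 180 ± 20.3 and nhr-50 at 174 ± 20.7, and in food removed larvae of the same age they stood at 163 ± 28.0 and 172 ± 22.0. In refed larvae they stood at 67.8 ± 15.2 and 47.0 ± 10.8.

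Between larvae starved for 3 h in M9 and in S-complete, 0 members passed at an adjusted p below 0.05 by the authors' deposited table (background 0% in both directions). An unadjusted p below 0.05 was found for 13 members and for 3.18% of all worm probe sets. The median log2 difference of all members was -0.07. nhr-21 stood at 201 ± 21.2 in M9 and 384 ± 26.7 in S-complete, nhr-43 at 50.1 ± 12.8 and 150 ± 17.0, and nhr-90 at 312 ± 20.4 and 357 ± 18.3.

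The M9 arrays shared hybridization days with the fed arrays, so they give a comparison within days, though across buffers. Without the 3 h samples, the limma fit called 101 members lower in fed larvae (background 13.3%). Of these, 96 (95%) stood lower in fed larvae at 3 h than in M9 larvae at 3 h. The median log2 difference was -0.64, against -0.70 for the same members relative to S-complete larvae. For all probe sets called lower in that fit, the share was 93.0%. Of the 10 members called higher in that fit (background 9.66%), 8 (80%) stood higher in fed than in M9 larvae at 3 h. For all probe sets called higher, the share was 94.5%. This comparison was chosen after the data were seen. By a test recomputed from the means and errors, 0 members passed in this comparison (background 0% in both directions).

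Members stood lower in arrested larvae that were fed for 3 h than in larvae kept without food. Refed arrays shared no hybridization day with the starved or fed arrays, so refeeding and day cannot be told apart here. The comparison of refed with food removed larvae, which shared their day, is given below. Relative to larvae starved for 12 h, 11 members were lower in refed larvae and 1 was higher by the authors' deposited table (background 1.85% and 1.36%), and the median of all members was -0.25. Relative to larvae starved for 15 h, 8 were lower and 1 higher (background 1.16% and 0.878%). nhr-101 stood at 60.2 ± 5.25 in refed larvae against 320 ± 15.2 at 12 h without food, a 5.31-fold difference (authors' deposited table, adjusted p = 0.0268). nhr-19 stood at 88.7 ± 10.1 against 405 ± 26.3 (adjusted p = 0.0465 by the authors' deposited table), and nhr-53 at 14.1 ± 4.05 against 71.6 ± 8.53 (adjusted p = 0.0372).

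nhr-99 at 34.9 ± 5.46 against 142 ± 11.5 and nhr-103 at 16.2 against 50.4 completed the 5 largest drops among members called. nhr-97 was the member called higher relative to 12 h, at 217 ± 17.3 against 117 ± 11.9, and nhr-11 relative to 15 h, at 222 ± 17.1 against 72.7 ± 8.90. With p-values recomputed from the means and errors, nhr-53, nhr-103, nhr-97 and nhr-11 did not pass, with adjusted p-values of 0.0575, 0.117, 0.0853 and 0.0519. Relative to fed larvae at 3 h, 0 members passed by the authors' deposited table (background 0% in both directions). An unadjusted p below 0.05 was found for 26 members and for 9.84% of all worm probe sets, which is a similar share. The median of all members in that comparison was -0.08.

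Removing food for 3 h was followed by no call relative to fed larvae. Food removed arrays shared no hybridization day with the fed or starved arrays, so food removal and day cannot be told apart. Relative to larvae fed for 12 h or 15 h, 0 members passed by the authors' deposited table (background 0.00887% higher and 0.0177% lower at 12 h, 0% and 0.00443% at 15 h). At an unadjusted p below 0.05 there were 46 and 28 members, against 16.4% and 9.7% of all worm probe sets, which are similar shares. Of the 46, 32 were higher and 14 lower in food removed larvae, and the median of all members was 0.07. Relative to larvae starved for 3 h from hatching, 30 members were lower and 1 was higher in food removed larvae (background 2.93% and 3.06%), and the median of all members was -0.52.

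nhr-62 stood at 77.4 ± 10.2 in food removed and 296 ± 22.9 in starved larvae at 3 h (authors' deposited table, adjusted p = 0.0107), nhr-132 at 30.8 ± 5.45 and 116 ± 10.8 (adjusted p = 0.0248) and nhr-92 at 41.0 ± 6.58 and 130 ± 12.2 (adjusted p = 0.0328). nhr-21 and nhr-180 were also among the 5 largest drops of members called. The member called higher was nhr-91, at 87.9 ± 10.6 against 72.7 ± 9.59, a log2 difference of 0.27 ± 0.26. With p-values recomputed from the means and errors, none of these 31 members passed.

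The 61 members called lower in fed larvae from 0 to 6 h were followed through the later conditions, which that fit did not use. Of them, 59 stood lower in fed than in starved larvae at 12 h, 60 at 15 h and 59 at 24 h, with medians of -0.97, -0.91 and -1.06. Of the 1576 probe sets called lower in the same fit, 92.1%, 90.0% and 88.0% stood lower at these times. In refed larvae 57 stood lower than at 12 h without food, with a median of -0.77, against -0.67 for the 1576. In food removed larvae 50 stood higher than at 12 h with food, with a median of 0.35, against 0.23 for the 1576. Fed and starved values come from different hybridization days, as do starved and refed values, and fed and food removed values. A difference between days that entered the 0 to 6 h fit could also be in the values at 12, 15 and 24 h. These counts therefore cannot tell food and day apart.

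Refed and food removed arrays shared 1 day. Between them 33 of the 61 stood lower and 27 higher in refed larvae, with a median of -0.06. Of the 1576 probe sets, 62.3% stood lower in refed larvae, with a median of -0.18. Of the 111 members called lower over the 7 times, 55 (49.5%) stood lower in refed than in food removed larvae, against 54.8% of all probe sets called lower. Of the 16 called higher, 9 (56%) stood higher in refed larvae, against 54.1% of all probe sets called higher. By the test recomputed from the means and errors, 2 members were lower in refed larvae and 0 higher (background 2.26% and 2.22%). They were nhr-68, at 69.0 ± 10.4 against 393 ± 33.9 (adjusted p = 0.0448), and nhr-101, at 60.2 ± 5.25 against 131 ± 8.08 (adjusted p = 0.0487). nhr-68 thus stood lowest of all 18 conditions in refed larvae, below its 375 ± 24.6 at 12 h without food and its 208 ± 16.6 after 3 h with food.

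**Figure D5:**
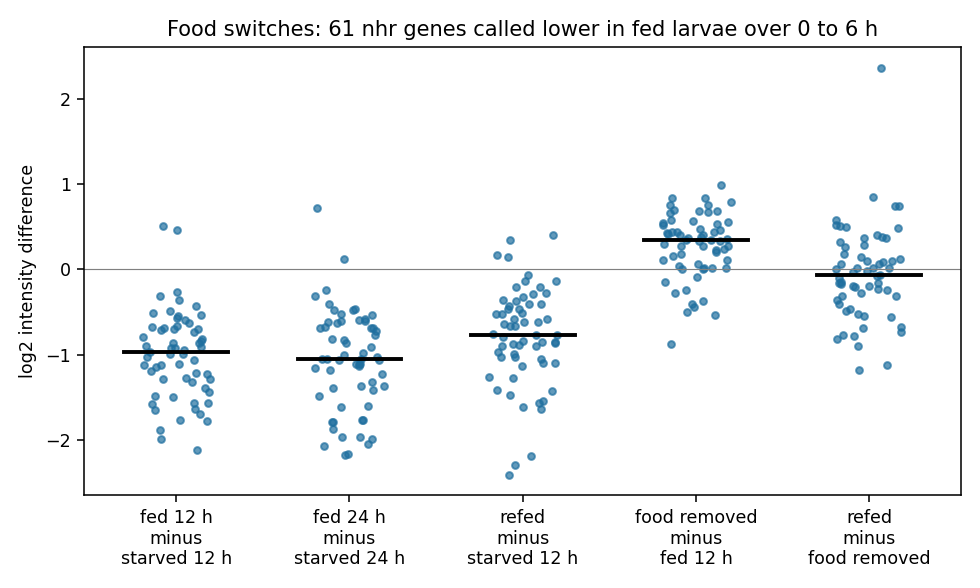
Log2 intensity differences (vertical axis) of the 61 members called lower in fed larvae over 0 to 6 h in 5 later comparisons (horizontal axis); each point is a gene and each bar the median. The medians are -0.97 and -1.06 for fed against starved larvae, -0.77 after refeeding, 0.35 after food removal and -0.06 between the 2 switched conditions.

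By the analysis of variance in the authors' deposited table, 197 of the 257 members with a p passed for the food term (background 68.9%). Of the 197, 151 had the lower mean with food (background 33.5%) and 45 the higher (background 35.2%). For the interaction of food and time 142 of 257 members passed, against 54.7% of all probe sets with a p. For time 159 of 259 members passed, against 60.5%. Both shares were close to the background. Of the 127 members called by limma, 121 passed for the food term.

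Profiles of members were compared by the correlation of log2 intensity over the 18 conditions, among the 166 members detected in at least 4 of them. The conditions share array days and normalization, and no test was made. The median correlation between 2 members was 0.34. The members most like nhr-49 were nhr-227, nhr-221 and nhr-4, with correlations of 0.92, 0.91 and 0.91. nhr-227 ranged from 24.1 to 40.5 without and from 15.0 to 21.6 with food, nhr-221 from 27.2 to 55.7 and from 15.7 to 26.2, and nhr-4 from 348 to 456 and from 114 to 221. The members most like nhr-25 were nhr-183, nhr-158 and nhr-17, with lower correlations of 0.63, 0.58 and 0.53. nhr-23 was detected in too few conditions to be compared.

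Many members lie beside each other in the genome. By the order of genes in the current RefSeq assembly, 114 of the 262 members found there stood next to another member, in 36 runs of up to 8 genes. Of members next to another, 52 (45.6%) were called lower in fed larvae over the 7 times, and of those with no member beside them 59 (39.9%). Both shares were near the 42.2% of the whole family, against a background of 16.8% of all worm probe sets. Of 78 neighbouring pairs, 24 had both genes called lower and 3 had 1 called in each direction. No background for pairs of neighbouring genes is given here. The median correlation of 45 neighbouring pairs with profiles was 0.58. The part of shared sequence between neighbours, which could carry signal from one probe set to the other, was not tested.

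A run of 7 neighbours, nhr-206, nhr-208, nhr-207, nhr-209, nhr-154, nhr-153 and nhr-136, is described here after its values were seen. nhr-208 was 52.0, 67.1, 82.2, 102, 124, 124 and 128 in starved larvae and 52.4, 37.6, 15.6, 12.2, 9.07, 12.1 and 11.1 in fed larvae, with a slope of -0.82 ± 0.11 (limma adjusted p = 0.0223). Equal at hatching, it was the member of this run that separated most. nhr-206 stood at 73.8 and 53.6 at hatching and at 187 and 30.8 after 24 h. nhr-136 had the other course, with its widest separation early: 168 and 46.1 at hatching and 113 and 51.4 at 24 h. nhr-207 and nhr-209 were detected nowhere.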

How the data were processed

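Whole-animal RNA (100 ng per array) from 18 conditions was measured on 54 Affymetrix arrays, from cultures of 10 ml with 10000 larvae. Per the deposited read-me, the authors averaged 3 biological replicates into 1 mean intensity per condition, raised values below 5 to 5 and gave an error in the same unit. No source used here states how background was corrected or arrays were normalized. The authors' deposited detection p, handled as a score because the column also holds totals, called a probe set detected below 1e-10. The authors also deposited unadjusted p-values of t-tests between conditions and of analyses of variance. Those of the t-tests were adjusted here by Benjamini-Hochberg over 22548 worm probe sets, after leaving out 77 controls. Those of the analyses of variance were adjusted alike over the 22040 to 22268 worm probe sets with a p. Depth has no meaning for arrays, and their number limits the precision.

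From the means, fed and starved larvae were compared by limma (lmFit and eBayes) on log2 intensity of 14 conditions, with time as a factor, so that the 7 times act as replicates of the food difference, at an adjusted p of 0.05. The slope of the difference on log2(h + 1) was tested alike. Where the authors gave no p, it was recomputed from the means and errors with 4 degrees of freedom. R 4.3.3, limma 3.58.1, Python 3.11.15, pandas 2.3.3, SciPy 1.17.1 and statsmodels 0.14.6 were used, and the limma steps were tested on simulated data. The members and lists were chosen with earlier results of these data known, and so were the tests.

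The genes named are the 10 largest log2 differences in each direction over the 7 times among members called, of 1 sign at 7 of 7 times and detected in at least 4 conditions of the higher arm, the 5 largest in each direction per pair of conditions among called and detected members, all conserved and metabolic receptors, the 5 widest ranges per arm, the 3 profiles most like nhr-49 and nhr-25, and up to 4 called genes per list of partners and targets. Exceptions are said to be chosen after their values were seen. Alternatives tried were no time factor, quantile normalization, detected probe sets only, an added 16, an intensity trend, first-stage times only, other probe sets, recomputed p-values and leaving out each time. The RefSeq table of assembly WBcel235 gave current names and gene order. For 11 members the array annotation and the authors' table name different or further genes.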

Additional observations from a re-analysis of the deposited data

Results flagged for a closer look

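The food difference itself changed with time for 8 of the genes named by the rules given above. The test was the limma slope test at an adjusted p below 0.05, each over 7 times. The slopes per unit of log2(hours + 1), fed minus starved, were -0.50 for nhr-206, -0.45 for nhr-21, -0.41 for nhr-19, -0.33 for nhr-110, -0.28 for nhr-4, -0.24 for nhr-180 and -0.24 for nhr-227. It was 0.22 for nhr-203. Of the genes named after their values were seen, nhr-208 (-0.82), nhr-207 (-0.47) and nhr-235 (0.60) also passed this slope test. Without the 1 h samples, 0 members passed this test. No explanation was tested.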

How the results depend on the processing

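Of the counts of members called, 109 values under the alternatives stayed within 1.5 times of the reported count and 31 did not. The 111 members lower with food became 61 over 0 to 6 h, an alternative added after the data were seen that uses fewer samples, and 97 to 109 on leaving out single times. The 16 members higher with food became 9 over 0 to 12 h, 3 over 0 to 6 h and 7 to 13 on leaving out single times. The 19 falling slopes became 0 to 14 on leaving out single times. The 2 rising slopes became 1 per hour, 1 after quantile normalization and 0 to 2 on leaving out single times. With p-values recomputed from means and errors, 0 members were lower at 3 h, 0 higher and 0 lower at 6 h, 3 higher at 12 h and 0 higher at 15 h with food. In the same way, 1 was higher in starved larvae at 0 h than in embryos, 0 higher in refed than in 15 h starved larvae, and 0 higher and 0 lower in food removed than in 3 h starved larvae. At 6 h, 1 of the members called higher was detected. Another probe set of nhr-119 gave a log2 difference of 0.083 in place of -0.49. The cause of these changes was not tested. No paired analysis was possible because each condition has 1 deposited mean and the array files used here hold no intensities, so replicate numbers could not enter a fit. The limma fit pairs fed and starved means by time, and without the time factor it called 111 members lower and 14 higher. Within-arm tests over time were not run, and ranges are given. Signal near background limits the 75 members detected nowhere.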
